A study of Mus musculus with 2 samples.

Results

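The cells described here were chosen by their measured values, as called cells with at least 1000 genes detected and more than 10% of their gene UMIs (unique molecular identifiers, the counted molecules) from the 13 protein genes of the mitochondrial genome, whose symbols begin with mt-. There were 1407 such cells, 6.52% of the 21593 called cells and 7.71% (exact binomial 95% interval 7.33 to 8.11%) of the 18248 with at least 1000 genes. They were set beside the 16841 called cells with at least 1000 genes and at most 10%. A usual filter on mitochondrial share removes them. A further 2901 called cells were over 10% with fewer than 1000 genes, so that 4308 called cells in all were over 10%.

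The series describes 2 mouse samples of the cell line Delmix: epiblast stem cells with no treatment, and embryoid bodies on day 2, which are aggregates made from those stem cells. Both were described for droplet-based 3' single-cell RNA sequencing, with 1 sample per group. The counts form 1 pooled matrix whose cell tags match no sample label, so every value below belongs to the pooled library and to neither sample, and no test between groups of cells was made. The sources used here do not give a genotype, clone or passage for the line.

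Epiblast stem cells stand for the pluripotent epiblast of the early embryo after implantation. The mitochondrial genome encodes core subunits of the respiratory chain and of ATP synthase, and nearly all other mitochondrial proteins come from nuclear genes whose mRNAs lie in the cytosol. The mitochondrial share of a droplet's RNA is widely used as a quality measure, because RNA inside mitochondria can stay in a cell whose cytosolic RNA leaks out, and it also varies with how many mitochondria a healthy cell holds.

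The mitochondrial share was used to choose the cells, so the values of this paragraph are a description. The share ran from 10.01% to 32.5%, with a median of 13.2% and quartiles of 11.4 and 15.7%. In 974 cells (69.2%) it was under 15%, 103 were over 20% and 1 was over 30%. The cells had 1338 to 9305 UMIs in all, with a median of 2031 and a sum of 3217220, against a median of 6473 at most 10%. In UMIs of other genes the medians were 1737 and 6255, a 3.60-fold difference. In mitochondrial UMIs the medians were 290 and 205, so the cells over 10% held 1.41 times as many. Of the cells over 10%, 86.3% had fewer other UMIs than the 5th percentile of cells at most 10%, and 25.1% of the cells at most 10% had more mitochondrial UMIs than the median cell over 10%. Cell-free droplets, taken as uncalled barcodes of 150 to 300 UMIs, had 0.942% mitochondrial UMIs when pooled, or 2.04 of a mean 217 UMIs.

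**Figure D1:**
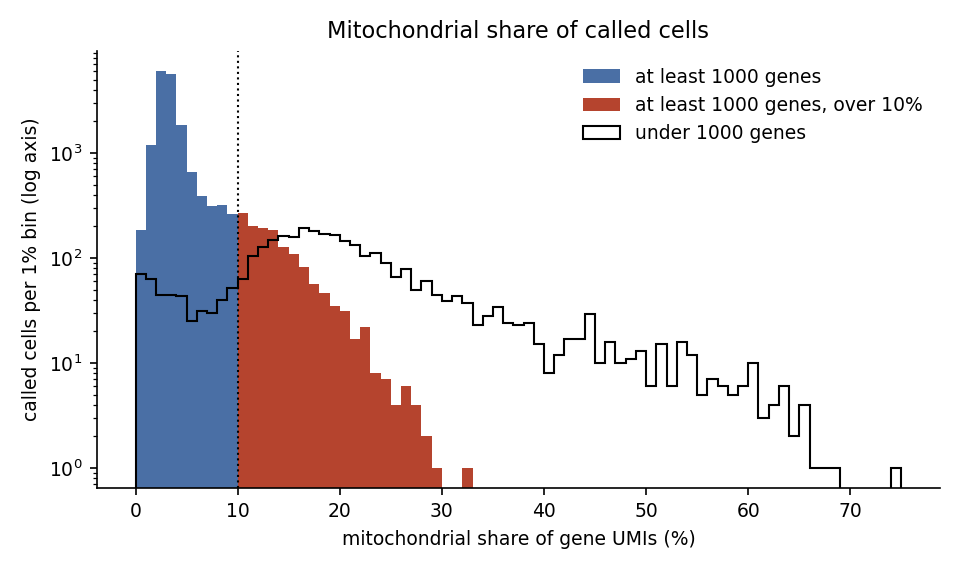
Called cells per 1% bin of mitochondrial share (log axis), with at least 1000 genes (filled) and under 1000 genes (line). The filled bins run through the dotted 10% line without a gap, with 260 cells at 9 to 10% and 268 at 10 to 11%.

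Cells on the 2 sides of the line were much alike. The 260 cells at 9 to 10% had a median of 2341.5 other UMIs and 245.5 mitochondrial UMIs, and the 268 cells at 10 to 11% had 2115.5 and 247.5. A list of 22 ribosomal protein genes made up a median 2.43% and 2.36% of their other UMIs. Every ribosomal protein share given here is of these 22 listed genes, not of all ribosomal protein genes. At the gene minimum, the 172 cells over 10% with 950 to 999 genes had a median ribosomal protein share of 2.83%, and the 152 with 1000 to 1049 genes had 2.89%.

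**Figure D2:**
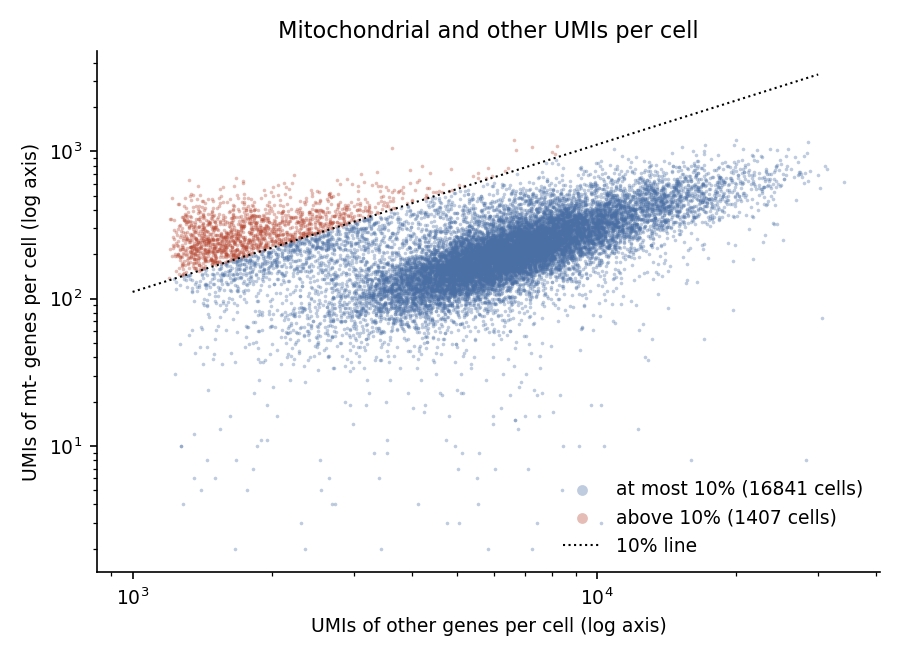
Each point is a called cell with at least 1000 genes, by UMIs of other genes and of mt- genes (log axes), over 10% (red) or at most 10% (blue). The cells over 10% form the upper left of a cloud at a median of 1737 other UMIs and 290 mitochondrial UMIs, which continues below the dotted 10% line.

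All 13 mitochondrial genes, which the choice of cells used, had more UMIs per cell over 10%, by factors that differed between them. The ratio of mean UMIs per cell was lowest for mt-Co1, a catalytic subunit of cytochrome c oxidase (19.3 against 18.8 UMIs per cell, 1.03 times), followed by mt-Nd4 (1.13 times) and mt-Nd1 (1.14 times) of complex I. It was highest for mt-Nd6, the only one of the 13 on the minus strand of the reference (0.773 against 0.458 UMIs per cell, 1.69 times), and was 1.44 times for mt-Co3 and 1.43 times for mt-Atp6. The makeup of the mitochondrial UMIs therefore differed: mt-Co1 gave 6.15% of them over 10% and 7.95% at most 10%, mt-Nd1 gave 8.95% and 10.5%, and mt-Co3 gave 24.9% and 22.9%. In cell-free droplets these 3 genes gave 6.84%, 8.60% and 25.2%. The use of strand in counting is not stated, so mt-Nd6 and RNA antisense to it cannot be told apart.

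The coding stretches of mt-Atp8 and mt-Atp6, subunits of ATP synthase carried on 1 shared mRNA, overlap, and their counts can be split between the genes by the counting. They are shown because the gene with few UMIs, mt-Atp8 (0.553 per cell over 10%, 0.362 at most 10%), shares the capitals below with its neighbour mt-Atp6 (75.1 and 52.5). The sequences are from the GENCODE M21 transcripts on GRCm38, plus strand, 5' to 3', and capitals mark the 43 shared bases at chrM:7927-7969. The first stretch is chrM:7897-7969 and the other is chrM:7927-7999.
mt-Atp8: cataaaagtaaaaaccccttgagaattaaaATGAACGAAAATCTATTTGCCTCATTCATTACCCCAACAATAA
mt-Atp6: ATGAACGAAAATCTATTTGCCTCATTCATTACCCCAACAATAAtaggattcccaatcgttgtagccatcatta
The build the authors used is not stated, so these coordinates are those of this reference only. Ratios for mt-Atp8 (1.53 times) and mt-Atp6 are uncertain to the extent that reads in the capitals were given to 1 gene or left uncounted.

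The same machinery has a nuclear part, set beside the mitochondrial one here as a description. The 13 mitochondrial genes summed to 315 UMIs per cell over 10% against 237 at most 10%. The 28 listed nuclear subunits of oxidative phosphorylation summed to 11.4 UMIs per cell against 68.6. The cells were chosen for this contrast, and nearly all nuclear genes had fewer UMIs per cell over 10%, with a mean of 1972 other UMIs against 6955.

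To compare the remaining RNA, mt- genes were left out and UMIs summed over cells were scaled to CPM, the count per 1000000 such UMIs. A gene was tested, in the sense of being counted, with at least 20 CPM in the higher group, and was called at 2-fold. The direction of a gene under 20 CPM in 1 group was thus fixed on entry. Among such genes below are Sesn1, Bak1, H1f4, Krt18 and the tested fibroblast markers. Of 8108 genes, 2404 (29.6%) were at least 2-fold higher over 10% and 734 (9.05%) at least 2-fold lower. The median log2 ratio of all these genes was 0.53, so genes near 0 lay below the middle of the distribution. Of the calls, 76.6% were higher, a split that depended on the scaling: 62.9% with mt- genes kept in the total, 60.5% with ribosomal protein genes left out of it, and 21.2% (464 higher and 1720 lower) with the median set to 0. In UMIs per cell, 93 of the 8108 genes (1.15%) were higher over 10% and 0 were so by 2-fold. A gene called higher thus held a larger part of a smaller total. Intervals below are exact Poisson 95% intervals for counting error only.

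Messenger RNAs of short, abundant cytosolic genes were the lower side. All 22 listed genes for proteins of the cytosolic ribosome were below 0 on the log2 scale. Of these, 16 were at least 2-fold lower and 0 higher, beside 9.05% and 29.6% of all genes, with a median log2 ratio of -1.20. Rpl32 was at 843 CPM (810 to 878) over 10% and 2754 CPM (2745 to 2764) at most 10%. Rps2 was at 1246 and 3981 CPM, and Rplp0 at 898 and 2623 CPM. These genes have many processed pseudogene copies, and reads shared with them can be split or left uncounted. Of 20 other abundant cytosolic mRNAs, 13 were at least 2-fold lower and 0 higher (median -1.24), among them Tmsb4x (661 against 2377 CPM) and Pfn1 (422 against 1423 CPM), which bind actin, and Fth1 (610 against 2068 CPM), the heavy chain of the iron store ferritin.

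Cell by cell, the 22 listed ribosomal protein genes made up a median 2.47% of other UMIs over 10% and 6.35% at most 10%. In this share, 76.5% of the cells over 10% lay under the 5th percentile of the rest. With every cell thinned to 1000 other UMIs, which left out 0 cells, Rplp0 had a UMI in 55.4% (52.8 to 58.1%) of cells over 10% and in 90.2% (89.8 to 90.7%) of cells at most 10%. Unthinned shares were 75.7% and 98.8%. The fibroblast-gene cluster described below had Rplp0 in 86.4% of its cells after thinning; no cell type here should lack this gene.

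Lists of nuclear-encoded mitochondrial proteins differed from each other. Of 28 oxidative phosphorylation subunits, 9 were at least 2-fold lower and 0 higher (median -0.79), beside 9.05% and 29.6% of all genes, with Uqcrq of complex III at 137 against 382 CPM and Cycs, the electron carrier cytochrome c, at 122 against 340 CPM. Of 18 mitochondrial ribosome genes 7 were lower and 0 higher (median -0.85), as for Mrpl28 at 35.0 against 102 CPM. Of 20 import and chaperone genes 9 were lower and 0 higher (median -0.79), led by Timm8a1 at 128 against 398 CPM and Timm13 at 80.0 against 227 CPM, small chaperones of the space between the mitochondrial membranes. The 15 genes of mitochondrial DNA upkeep and RNA processing were mixed (1 higher, 1 lower, median 0.21). Their 2 calls are partners: Lrpprc, at 190 against 86.5 CPM, and Slirp, at 85.4 against 188 CPM, form a complex that stabilises mitochondrial mRNAs. Lrpprc spans 85.5 kb in the reference and Slirp 8.31 kb. Nrf1, a transcription factor for nuclear respiratory genes, was at 349 against 130 CPM, and Opa1, which fuses inner membranes, at 113 against 50.8 CPM. Map1lc3b, an autophagosome protein, was at 100.2 against 244 CPM.

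Noncoding RNAs, most of them known to stay in the nucleus, were the higher side. Of 14 nuclear noncoding RNAs, 12 were at least 2-fold higher and 0 lower, beside the 29.6% of all genes, with a median of 1.49. Malat1, a nuclear speckle RNA, was at 18570 CPM (18410 to 18731) against 7373 CPM (7358 to 7389). Meg3 of the imprinted Dlk1-Dio3 region was at 3078 against 1364 CPM, Xist, which coats the inactive X chromosome, at 664 against 207 CPM, Snhg14 at 397 against 105 CPM and Tug1 at 124 against 33.0 CPM. Malat1 and Meg3 were chosen after their values were seen. Snhg14 and Xist have antisense partners, from which they cannot be told apart without strand. Per cell, Malat1 still had fewer UMIs over 10% (36.6 against 51.3). After thinning, Meg3 had a UMI in 82.0% (79.9 to 84.0%) of cells over 10% and in 63.6% (62.8 to 64.3%) of the rest, with 89.6% and 93.3% unthinned. Of 18 splicing genes 2 were higher and 0 lower (median 0.15), Luc7l2 among them at 709 against 275 CPM.

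**Figure D3:**
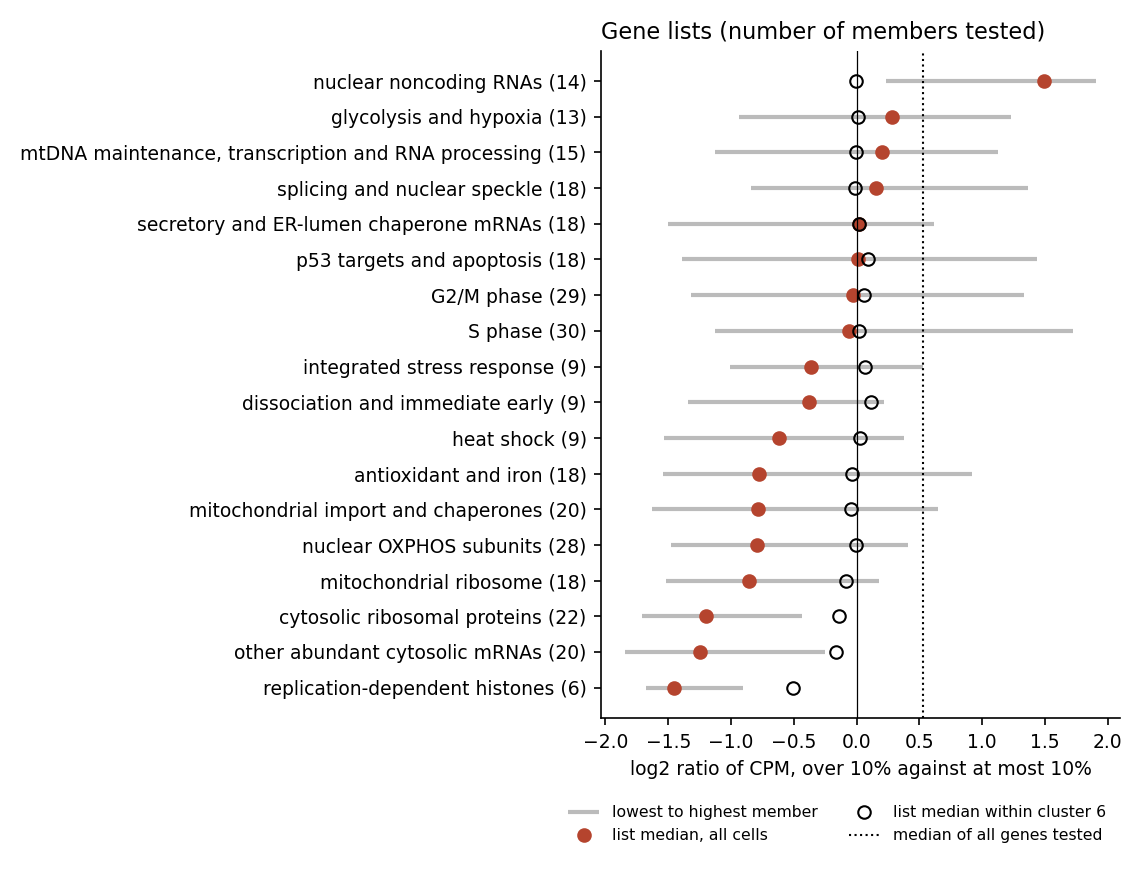
Median log2 ratio of CPM (over 10% against at most 10%) per gene list in all cells (filled) and within cluster 6 (open), with grey lines from the lowest to the highest member and the dotted line at the median of all genes, 0.53. Ribosomal proteins (-1.20) and nuclear noncoding RNAs (1.49) lie on opposite sides of 0 in all cells, and at -0.14 and -0.01 within cluster 6.

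Lists of cell stress genes differed in their calls, beside 29.6% higher and 9.05% lower among all genes. Of 9 integrated stress response genes 0 were higher and 1 was lower, the serine synthesis gene Psat1 (108 against 220 CPM). Of 18 p53 target and apoptosis genes 3 were higher and 3 lower (median 0.01): Sesn1 and Trp53inp1, at 38.9 against 13.7 CPM and 369 against 149 CPM, were on the higher side, and the pore formers Bax (350.0 against 806 CPM) and Bak1 (9.73 against 27.1 CPM) on the lower. Of 9 heat shock genes 2 were lower, with Hspb1 at 163 against 474 CPM, and of 9 immediate early genes 1 was lower, Jund at 130 against 330.1 CPM. Of 18 antioxidant and iron genes 7 were lower and 0 higher (median -0.78), including Gpx1, a glutathione peroxidase (75.3 against 221 CPM), and Ftl1, the ferritin light chain (701 against 1949 CPM). Of 18 genes of the secretory pathway and of chaperones in the endoplasmic reticulum, 3 were lower (Sec61b, Sec61g and Spcs1, all short genes) and the list's median was 0.02. The chaperone Hsp90b1, chosen after its values were seen, was at 822 against 538 CPM. The translocon subunit Sec61b was at 168 against 478 CPM.

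The S phase and G2/M lists had medians near 0, which is below the 0.53 of all genes. Among all genes, 29.6% were higher and 9.05% lower. Of 30 S phase genes 2 were higher and 1 lower (median -0.06): Pola1, the catalytic subunit of DNA polymerase alpha, at 915 against 276 CPM, Dtl at 193 against 86.7 CPM, and Gins2 at 31.4 against 69.6 CPM. Of 29 G2/M genes 1 was higher and 2 lower (median -0.03), the last being Ube2c (162 against 406 CPM) and Birc5 (137 against 342 CPM). Of 6 histone genes 4 were lower and 0 higher (median -1.45), with H1f4 at 18.4 against 61.0 CPM and H2az1, a variant made outside S phase too, at 1158 against 3543 CPM. Of 13 glycolysis and hypoxia genes 3 were higher, a smaller share than the 29.6% of all genes, and 0 lower; Slc2a3, a glucose transporter, was at 671 against 289 CPM. Every list median between 0 and 0.53 named here falls below 0 when the median of all genes is set to 0.

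Among genes with at least 50 CPM in the higher group and no provisional name, the 10 highest ratios were those of Bnc2, Pdzrn4, Klf12, Ntn1, Adam23, Ryr2, Abcc4, Dnah8, Fut9 and Prlr, between 4.61-fold (Bnc2) and 4.09-fold (Prlr). Adam23, a cell adhesion protein, was at 1176 CPM (1136 to 1217) against 265 CPM (262 to 268), the transcriptional repressor Klf12 at 1007 against 223 CPM, the guidance cue Ntn1 at 288 against 63.5 CPM, and the ABC transporter Abcc4 at 447 against 106 CPM. Their spans in the reference ran from 150 kb (Adam23) to 554 kb (Ryr2). They are among the few genes with more UMIs per cell over 10%, Bnc2 by 1.32 times and Klf12 by 1.28 times. In the 7 clusters with at least 30 cells on each side, Bnc2, Klf12, Ntn1, Adam23 and Fut9 were higher over 10% in 7 of 7, and Prlr in 4 of 7. These counts are of direction only. Within cluster 6, described below, which held 74.5% of the cells over 10%, the 10 log2 ratios ran from -0.01 (Abcc4) to 0.59 (Pdzrn4). In all cells they ran from 2.03 (Prlr) to 2.20 (Bnc2). Ntn1, Bnc2, Dnah8 and Klf12 were also among the leading genes of cluster 5, described below. That cluster had a median of 8387.5 UMIs, and 4.15% of its cells were over 10%. Its leading genes also held Esrrb and Tfcp2l1 of the naive pluripotency list, and 28.2% of its cells were called doublets. After thinning, Adam23 had a UMI in 59.7% (57.1 to 62.3%) of cells over 10%, in 20.7% (20.1 to 21.4%) of the rest, and in 7.95% of the fibroblast-gene cluster, whose median depth was 6912 UMIs. Unthinned shares were 75.7%, 64.2% and 41.4%.

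Over the 8069 genes matched to the GENCODE M21 annotation by identifier (99.5%), Spearman's rho between gene span and log2 ratio was 0.74, and 0.60 for summed exon length. These are across genes, which share 1 library and are not replicates. Of 693 genes under 5 kb, 48.2% were at least 2-fold lower and 0.866% higher (median log2 ratio -0.97). Of 200 genes of 400 kb or more, 85.0% were higher and 0 were lower (median 1.42). The genes called higher had a median span of 95.5 kb, those called lower 5.67 kb, and all matched genes 32.2 kb. Between the log2 ratio and the level at most 10%, rho was -0.39. That level is the denominator of the ratio, so a negative rho is partly built in.

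**Figure D4:**
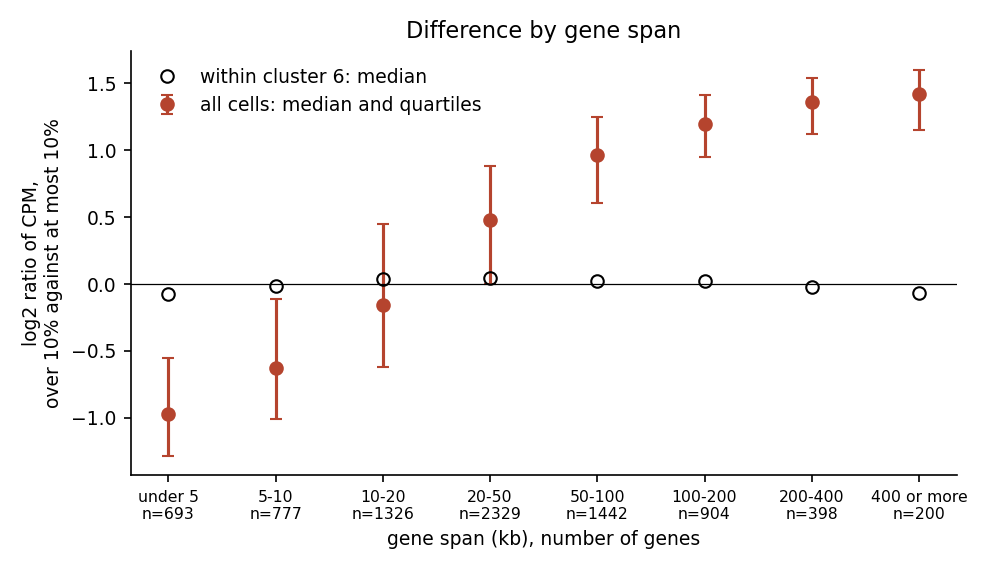
Log2 ratio of CPM (over 10% against at most 10%) by gene span in kb, with the median and quartiles of all cells (filled) and the median within cluster 6 (open). The medians climb from -0.97 under 5 kb to 1.42 at 400 kb or more in all cells and stay between -0.07 and 0.04 within cluster 6.

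Within the cells over 10%, these shares did not follow the mitochondrial share. The median ribosomal protein share was 2.46% in the 974 cells at 10 to 15%, 2.49% in the 330 at 15 to 20% and 2.57% in the 102 at 20 to 30%. Nuclear noncoding RNAs gave 2.41%, 2.42% and 2.36%. Other UMIs did fall, from a median of 1861 to 1623.5 and 1417.5, while mitochondrial UMIs were 259, 331 and 431. Over the 1407 cells, all of 1 library and with the total UMI count shared by both measures, Spearman's rho with the mitochondrial share was 0.02 for ribosomal proteins, 0.002 for noncoding RNAs and -0.40 for other UMIs. Below the line, the 5 to 10% band (1933 cells) was broad, with ribosomal protein quartiles of 2.52 and 6.25% around a median of 4.87%, whereas the 2 to 5% band had 5.73 and 7.17% around 6.46%.

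**Figure D5:**
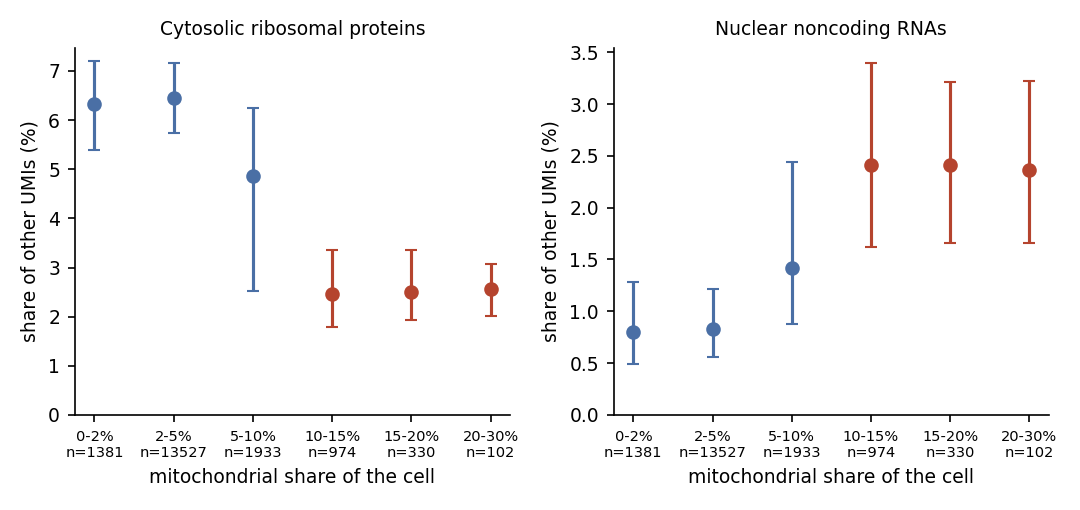
Median and quartiles per cell of the share of other UMIs from the 22 listed ribosomal protein genes (left) and the listed nuclear noncoding RNAs (right). Bands are of mitochondrial share, red where over 10%. The 3 red bands lie at 2.46 to 2.57% and at 2.36 to 2.42%, and the 5 to 10% band spans the levels of both sides.

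All cells with at least 1000 genes were clustered together, with mt- genes left out, and 11 clusters were numbered by size. Cluster 6 (1759 cells, median 2222 UMIs), led by Abcc4, Bnc2, Klf12 and Adam23, held 1048 of the 1407 cells over 10% (74.5%). It was left unnamed because its 10 leading genes held no marker of any cell type list. Of its cells, 59.6% (57.2 to 61.9%) were over 10%, and the other 711 were at or under it. In the other 10 clusters the share over 10% was between 0% and 4.15%. It was 4.15% (3.28 to 5.17%) in cluster 5, led by Ntn1, Enox1 and Nr5a2, 4.09% (2.78 to 5.79%) in the primitive streak-like cluster 7, and 1.39% (1.06 to 1.80%) in cluster 1, led by Car4 and Pou3f1. In cluster 8, fibroblast-like by Col3a1, Dcn and Col1a2, it was 0.993% (6 of 604 cells, 0.365 to 2.15%). Cluster 11, led by Nrxn3 and Dcx, had 0 of 27 cells (exact interval 0 to 12.8%). Because the clusters rest on the same genes as the ratios above, these shares describe where the cells fell and are no independent comparison.

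Inside cluster 6, few genes differed by 2-fold across the 10% line. The 711 cells at or under it had a median mitochondrial share of 8.04%, 2469 other UMIs, a ribosomal protein share of 2.05% and a noncoding share of 2.67%. The 1048 over it had 13.3%, 1729.5 other UMIs, 2.26% and 2.54%. Of 7924 genes tested there, 6 were at least 2-fold higher over 10% and 5 lower, with a median log2 ratio of 0.01. Ribosomal proteins had a median of -0.14, nuclear oxidative phosphorylation subunits -0.0007 and noncoding RNAs -0.01, and Spearman's rho with gene span was 0.03. Among lists with at least 4 genes tested there, 2 medians lay furthest from 0. They were those of 13 naive pluripotency genes (0.41, with the list at 3616 CPM over 10% and 2841 CPM at or under 10%) and of 4 histone genes (-0.51). Lists with only 1 gene tested were at 0.79 (primitive streak and mesoderm), 0.60 (trophoblast) and -0.16 (endoderm). In 2 clusters of a finer resolution, described below, the naive list differed less. The first had 5405 CPM over 10% and 5414 CPM at most 10%, and the other 1715 and 1532 CPM. These 2 clusters held 532 and 527 cells over 10%, against 321 and 423 at most 10%. Clustering put cells of like expression together on both sides, which itself narrows these differences.

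The pattern was also present, smaller, in the 359 cells over 10% that lay in the other clusters. Against the 16130 cells at most 10% there, 1425 genes were at least 2-fold higher and 233 lower, the median of ribosomal proteins was -0.68 and that of noncoding RNAs 1.05. Their median ribosomal protein share was 3.60%, between the 2.26% of cells over 10% in cluster 6 and the 6.41% of cells at most 10% elsewhere. When cells of both sides were drawn in equal number within narrow bins of depth, 846 on each side (median 2077 and 2093.5 other UMIs), 96 genes were higher and 194 lower, and the ribosomal protein shares were 2.46% and 3.53%. Their median mitochondrial UMIs were 322 and 144. Of the 846 drawn at most 10%, 374 were in cluster 6.

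Markers of cell identity were present in the cells over 10%. Summed over the naive pluripotency list, which marks the state before implantation, they had 3851 CPM against 4538 CPM. The primed epiblast list had 1839 against 1684 CPM, and the core pluripotency list 1938 against 2156 CPM. Of 13 naive genes 3 were higher, a smaller share than the 29.6% of all genes, and 1 lower, with 5 of 13 below 0 on the log2 scale. The higher ones were Tet2 (106 against 26.2 CPM), Tfcp2l1 (83.3 against 29.3 CPM) and Esrrb (113 against 42.3 CPM), all over 50 kb long, and the lower one was Spp1, the secreted protein osteopontin (118 against 348 CPM). Without the fibroblast-gene and macrophage-gene clusters Spp1 turned to 0.30 on the log2 scale. Of 16 primed genes 0 were called, beside 29.6% higher and 9.05% lower among all genes. Pou3f1, a short primed gene, was at 68.8 against 132 CPM, and Pou5f1, the pluripotency factor Oct4, at 365 against 568 CPM. Of 9 epithelial genes 2 were higher, again a smaller share than 29.6%, and 1 lower, and 6 were below 0 (median -0.16). Cdh1, the adhesion protein E-cadherin, was at 472 against 202 CPM, and Krt18, a keratin, was the lower one at -1.07 on the log2 scale. Pou5f1 had a UMI in 30.6% (28.2 to 33.1%) of thinned cells over 10%, in 41.1% (40.4 to 41.9%) of the rest and in 13.1% of the fibroblast-gene cluster, a cell type that should lack it. Unthinned shares were 48.2%, 88.2% and 42.2%.

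The 10 lowest genes were Ccl7, Mmp3, Ccl2, Crabp1, Col3a1, Tagln, Ly6a, Col1a2, Col1a1 and S100a6, most of them collagens, chemokines and other genes of fibroblasts. Col3a1 was at 5.77 CPM (3.30 to 9.37) against 66.9 CPM (65.4 to 68.4), and Ccl2 at 7.93 CPM against 92.7 CPM. All 7 tested fibroblast markers were at least 2-fold lower. Each was under the CPM minimum over 10% and was counted only through its level at most 10%. Their direction was thus fixed on entry, and this count cannot be set beside the 9.05% of all genes. The list of 13, summed without that minimum, was at 45.1 against 373 CPM, with 99.1 CPM in cell-free droplets. Only 6 of the 1407 cells lay in the fibroblast-gene cluster, against 598 of the 16841. Without the fibroblast-gene and macrophage-gene clusters, an alternative added after the data were seen, Col3a1 turned to 0.65 on the log2 scale, Ccl2 to 0.88 and Ly6a to 1.01. Col1a2 turned to 0.22, and Col1a1 (0.051) and Mmp3 (0.0082) came near 0. Ccl7, Crabp1, Tagln and S100a6 did not turn. The macrophage list summed to 62.0 against 94.7 CPM and the Zscan4 and related gene list to 42.2 against 42.9 CPM.

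The cells over 10% were not 1 uniform group. At a finer resolution of 1.0, also chosen after the data were seen, most of them fell into 2 clusters with 532 and 527 of them (62.4% and 55.5% of each cluster). In the first the naive list summed to 5405 CPM and the primed list to 1465 CPM; in the other they summed to 1715 and 2255 CPM. Zfp42, the naive marker Rex1, was at 1103 CPM (1041 to 1168) in the first and 124 CPM (103 to 148) in the other. Dnmt3b, a DNA methyltransferase of the primed state, was at 281 CPM (250 to 315) and 702 CPM (651 to 756), and Xist at 220 and 1160 CPM. The cells at most 10% in the same clusters had Zfp42 at 1078 and 124 CPM and Dnmt3b at 233 and 620 CPM, in the same order. Their naive list sums were 5414 and 1532 CPM. Ribosomal protein shares over 10% were 2.39% and 2.14%. These genes can have shaped the clusters, so the levels are a description.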

How the data were processed

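The authors deposited raw UMI counts per gene and barcode from Cell Ranger 8.0.1, as the file headers record. For aligner settings, genome build and annotation: not given in the sources used here. A deposited tag table gives an assignment probability, a fraction, per called cell. Its barcodes define the called cells and its tag calls are quoted in the closing section; tag counts were taken from the matrix. The matrix (2578653 barcodes, 33696 genes, 12 tags, 21593 called cells) was treated as 1 pooled sample, and 0 columns of other samples were left out.

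The members and gene lists were chosen with earlier results of these data known. Ratios are of CPM of summed UMIs without mt- genes, with a pseudocount of 1 CPM and at least 20 CPM in the higher group. With 1 pooled sample no test was made. Intervals are exact and cover counting error only. The script for the ratios was tested on simulated data. Clusters came from the Leiden method in scanpy 1.11.5 (resolution 0.5, 2000 variable genes, 30 components, 15 neighbours), with mt- and cell cycle genes left out. Doublet calling with Scrublet (expected rate 0.1) marked 33 of the 1407 cells (2.35%) and 1846 of the 16841 (11.0%); these stayed in unless stated. No correction for cell-free RNA was applied.

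Named are all 13 mt- genes, the 10 highest and 10 lowest genes with at least 50 CPM and no provisional name, and from each list at most 4 members, those of largest absolute log2 ratio; other genes were chosen after their values were seen. Alternatives were other mitochondrial and gene cut-offs, totals, pseudocounts and minimums, doublets, matched depth and cell makeup. A gene that this rule would name, and the count of the list that holds it, are not reported.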

Additional observations from a re-analysis of the deposited data

Results flagged for a closer look

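The oligo tags are outside the measurements compared above, and both had a higher median in the cells over 10% than in cell-free droplets, with the larger gap for CMO312. The median count of tag CMO312 was 589 UMIs in the cells over 10%, 400 in cells at most 10% and 340 in cell-free droplets, whose 90th percentile was 478; 801 cells over 10% (56.9%) exceeded that percentile, against 41.2% at most 10%. Tag CMO311 had medians of 920, 1054 and 830 UMIs. Of the 64 cells that the authors' table gives to CMO312, 21 (32.8%) were among the 1407, as were 3 (5.08%) of the 59 given to CMO311. The other 1383 of the 1407 were unassigned. Called cells over 10% with fewer than 1000 genes held a further 24 cells given to CMO311 and 21 given to CMO312. In the 2 clusters that held most of the cells at the finer resolution, median CMO312 was 450 UMIs in the one with the higher naive list and 962 in the other. Neither tag is tied to a sample by the labels, so what the tags say of the samples was not tested.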

How the results depend on the processing

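The number of cells depended on the cut-offs: 433 over 15%, 103 over 20%, 3475 with at least 500 genes and 87 with at least 2000. In that order the median mitochondrial share was 17.5%, 22.1%, 15.7% and 11.5%, the ratio of median other UMIs was 0.246, 0.226, 0.184 and 0.550, and that of mitochondrial UMIs was 1.71, 2.11, 1.14 and 2.40. Without doublets the last was 1.48. Without the cluster that holds most of the cells, 359 cells remained at a median of 12.8%. Genes higher and lower were 3766 and 1103 with no CPM minimum, 96 and 194 at matched depth, and 6 and 5 when averaged over clusters with at least 100 cells on each side, which 1 cluster met. They were 11 and 6 over clusters with at least 30, weighted by cells over 10%, 1425 and 233 without cluster 6, 464 and 1720 with the median set to 0, and 1105 lower with ribosomal protein genes left out of the total. The last 4, and the values without the fibroblast-gene and macrophage-gene clusters, were chosen after seeing the data. The causes were not tested.

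Within the 1 cluster with at least 100 cells on each side, signs turned for the median of nuclear noncoding RNAs (-0.0051) and for Col3a1 (0.13), S100a6 (0.19), Col1a2 (0.16), Mmp3 (0.27), Crabp1 (0.10), Ccl2 (0.39), Ccl7 (0.32), Col1a1 (0.78), Spp1 (0.59), Krt18 (0.15), Dtl (-0.0018), Nrf1 (-0.055), Luc7l2 (-0.076), Snhg14 (-0.087), Meg3 (-0.085), Abcc4 (-0.0103), Pola1 (-0.084) and Xist (-0.0056). Over clusters with at least 30, they turned for Col3a1 (0.13), S100a6 (0.031), Col1a2 (0.12), Mmp3 (0.0215), Ccl2 (0.51), Ccl7 (0.20), Col1a1 (0.55), Spp1 (0.65) and Ly6a (0.52). Without the fibroblast-gene and macrophage-gene clusters they turned for Col3a1 (0.65), Col1a2 (0.22), Mmp3 (0.0082), Ccl2 (0.88), Col1a1 (0.051), Spp1 (0.30) and Ly6a (1.01). The median of ribosomal proteins was negative under each of the 16 alternatives, from -1.73 to -0.14. At a median of 1737 other UMIs per cell, genes of a few CPM rest on few counts, such as those of the fibroblast list. No paired analysis was possible because the matrix is 1 pooled sample.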

Other observations

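Camk1d, a calcium-dependent kinase, and Lars2, the mitochondrial leucyl-tRNA synthetase, were higher in cell-free droplets than in either group of cells, and were chosen after their values were seen. Camk1d was at 1076 CPM in cell-free droplets, 514 CPM over 10% and 128 CPM at most 10%. Lars2 was at 297, 144 and 35.8 CPM.

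The 2901 called cells over 10% with fewer than 1000 genes had a median mitochondrial share of 19.8% and 776 other UMIs. Their median ribosomal protein share was 3.72% and their noncoding share 1.62%, both between those of the 1407 cells (2.47% and 2.41%) and those of cells at most 10% (6.35% and 0.869%). The number of genes found at a given depth is itself part of the rule: at 1000 other UMIs, the cells over 10% had a median of 813 genes and the cells at most 10% had 706.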
